A study of Homo sapiens with 51 samples.

Results

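The genes described here encode 35 aminoacyl-tRNA synthetases, the enzymes that join each amino acid to its tRNA. They were taken from a list of symbols and matched to the Ensembl identifiers of the files. All 35 were found among the 60664 gene identifiers, 19 of them for cytosolic enzymes and 16 for mitochondrial ones. They were measured by RNA sequencing of fractionated K562 cells, an established human chronic myelogenous leukaemia line, in 50 libraries with 2 per genotype and fraction. In the guide set, CRISPR interference cells carried a guide against DDX3 (sgDDX3), CNOT1 (sgCNOT1), NUP160 (sgNUP160) or Gal4, a yeast gene that served as control (sgGal4). In the transgene set, endogenous DDX3 was knocked down and cells carried a lentiviral transgene of wild-type DDX3 (WT) or of the mutant G325E, R326H, R351W, R376C, R534S or T532M. Its other 2 genotypes are sgDDX3 cells that received no transgene and cells never infected. No label ties the uninfected cells to an experiment, so placing them there is an assumption. A transgene adds DDX3 from a foreign promoter, and the uninfected cells also differ from all others in that set by infection, so infection and loss of DDX3 cannot be told apart against them. R376C is represented by 1 library per fraction, because its cytoplasmic replicate 2 was not analysed here and its nuclear replicate 2 was left out. That library had 62.8% of its reads outside genes, as in the cytoplasmic-labelled libraries, and not 5.14% to 10.5% as in the other nuclear-labelled ones.

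Cytosolic synthetases charge the tRNAs read by ribosomes in the cytosol, and several of them, with 3 scaffold proteins, form the multisynthetase complex. A separate set of nuclear-encoded enzymes is imported into mitochondria and charges the mitochondrial tRNAs there, while GARS1 and KARS1 each encode both forms. In mouse cells, the transcription factor ATF4 raises many cytosolic synthetase genes together with genes of amino acid synthesis when translation initiation is restrained. DDX3 is an RNA helicase of translation initiation, CNOT1 the scaffold of the main deadenylase complex, and NUP160 a nuclear pore protein.

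Gene counts per library ran from 2354961 to 10386022 in the cytoplasmic-labelled and from 3716156 to 21365002 in the nuclear-labelled libraries. The fractions are named here as labelled, because the nuclear RNA MALAT1 was at 20729 to 34091 CPM (read counts scaled to a common library size) in the cytoplasmic-labelled libraries and at 1665 to 3549 CPM in the nuclear-labelled ones. Whether the labels are exchanged was not tested. The targets were lower in the labelled knockdowns. DDX3X stood at 59.7 and 59.2 CPM in the cytoplasmic-labelled sgDDX3 libraries against 269 and 238 CPM with sgGal4, and at 147 and 127 CPM without a transgene against 279.8 and 289 CPM in uninfected cells. The WT and mutant libraries of that fraction had 217 to 430.2 CPM, in which RNA of the transgene and of the endogenous gene cannot be told apart. CNOT1 stood at 32.3 and 19.5 CPM with its guide against 629 and 587 CPM, and NUP160 at 12.8 and 16.2 CPM against 195 and 179.9 CPM. Of the defining markers of K562 and other cell types, the 8 erythroid genes summed to 277 to 461 CPM and 405 to 728 CPM in the labelled fractions, lymphoid markers to at most 6.54 CPM, and the 4 epithelial and fibroblast markers to 16.1 to 40.2 CPM and 15.9 to 28.7 CPM. Of the last, EPCAM reached 37.8 CPM and 28.0 CPM, while HBE1 and KRT5 were at 0. Of the erythroid genes, GATA1 was at 99.3 to 177 CPM in the cytoplasmic-labelled and 181 to 320 CPM in the nuclear-labelled libraries. The globin genes HBG1 and HBG2 reached only 9.62 and 2.87 CPM in the cytoplasmic-labelled and 28.6 and 14.6 CPM in the nuclear-labelled libraries. In bulk RNA, fewer cells of a type and less RNA per cell cannot be told apart.

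An 8-letter motif bound by ATF4 and its dimer partners, TGATGNAA, was searched on both strands of the RefSeq promoter windows (GRCh38.p14), which run from 250 bases before to 50 bases after each gene start. Windows were found for 30 of the 35 genes. The motif was in 7 of 21 windows of cytosolic synthetases (33.3%), in 1 of 18 windows of mitochondrial ones (5.56%), and in 3.62% of all 35116 windows. All 7 belonged to the 13 cytosolic enzymes of the mouse ATF4 response, of whose 15 windows they were 46.7%. The windows of the 6 other cytosolic enzymes held none. The sequences below show all 7 cytosolic matches, with the single mitochondrial one for comparison. Each is written 5′ to 3′ on the strand of its gene, with the match in capitals.
CARS1, chr11:3057407-3057436, minus strand: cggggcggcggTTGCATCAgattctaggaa
GARS1, chr7:30594834-30594863, plus strand: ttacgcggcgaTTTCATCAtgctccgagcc
IARS1, chr9:92293692-92293721, minus strand: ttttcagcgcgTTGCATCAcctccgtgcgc
MARS1, chr12:57488053-57488082, plus strand: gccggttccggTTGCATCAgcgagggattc
AARS1, chr16:70289675-70289704, minus strand: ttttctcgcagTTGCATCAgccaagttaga
NARS1, chr18:57621804-57621833, minus strand: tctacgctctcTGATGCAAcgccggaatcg
TARS1, chr5:33440956-33440985, plus strand: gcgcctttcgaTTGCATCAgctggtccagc
YARS2, chr12:32756076-32756105, minus strand: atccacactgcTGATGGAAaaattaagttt
The sites of CARS1, GARS1, IARS1, MARS1, NARS1 and TARS1 overlap an exon in GENCODE release 29, and those of AARS1 and YARS2 lie upstream of the gene. The window of MARS1 is at a RefSeq start that lies inside the GENCODE gene, whose first base is at 57475445. WARS1, which had the largest change without a transgene against uninfected cells, held no match in its windows, nor did SARS1 and EPRS1, and LARS1, VARS1, YARS1, AARS2 and VARS2 have no window in the table. A match describes the letters only, and binding was not measured.

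Levels between genes were compared as CPM per kilobase of annotated exon. In the cytoplasmic-labelled sgGal4 libraries, the isoleucine enzyme IARS1 was highest at 180.0 ± 4.69 CPM per kb (SD, n = 2), followed by the alanine enzyme AARS1 at 151.9 ± 2.51 and the glycine enzyme GARS1 at 130.2 ± 0.0356. The methionine enzyme MARS1 at 94.6 ± 0.471 and EPRS1, which carries the glutamate and proline activities on one chain, at 92.6 ± 10.5 CPM per kb did not differ beyond their spread. IARS2 led the mitochondrial enzymes at 65.5 ± 0.284 CPM per kb and overlapped the range of WARS1 at 64.4 ± 5.48, while WARS2 at 2.48 ± 0.23 and VARS2 at 0.693 ± 0.254 were lowest. In the nuclear-labelled sgGal4 libraries GARS1 led at 177 ± 2.66 CPM per kb, then EPRS1 at 132 ± 5.77 and AARS1 at 128 ± 0.196, which did not differ beyond their spread. Of the mitochondrial enzymes IARS2 was again the highest there, at 21.6 ± 1.44 CPM per kb, and SARS2 was the lowest of the 15 that passed the filter on low counts, at 1.34 ± 0.467.

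Changes were tested with edgeR's quasi-likelihood test over all genes, with Benjamini-Hochberg adjusted p under 0.05 as the threshold. Changes are log2 folds of normalized counts, given with their standard error. The labels do not say that replicates are separate cultures, so p-values measure the spread between these libraries only. The labelled fractions of the sgGal4 control were set against each other first. Of 19 cytosolic synthetases, 14 had a higher and 2 a lower level in the nuclear-labelled samples, with a median log2 difference of 0.86, against 29.7% of all genes higher and 35.4% lower and a median over all genes of -0.22. Of 16 mitochondrial synthetases, 3 were higher and 7 lower, with a median of -0.30. KARS1, the lysine enzyme, was higher there by 1.94 ± 0.16 (adjusted p = 4.2e-13) and the serine enzyme SARS1 by 1.52 ± 0.14 (adjusted p = 3.4e-12). Among the mitochondrial enzymes, LARS2 (-2.33 ± 0.16), AARS2 (-2.28 ± 0.17) and VARS2 (-3.58 ± 0.71) were lower there, while PARS2 was higher by 2.04 ± 0.25. IARS1 (-0.45 ± 0.14) and LARS1 (-0.35 ± 0.14) were the cytosolic members that were lower.

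The transgene set asks what loss of DDX3 does and how far wild-type or mutant DDX3 alters it. Summed over the 19 cytosolic synthetases, the cytoplasmic-labelled level was 6440 and 6523 CPM in uninfected cells, 5570 and 5621 CPM with WT, and 3728 and 3796 CPM without a transgene. The 16 mitochondrial synthetases summed to 950.4 and 958 CPM, 999 and 965 CPM, and 999.9 and 1064 CPM in the same order, and to 920.4 to 1064 CPM over all 17 libraries of that fraction. Nuclear-labelled, the cytosolic sum was 7275 and 7377 CPM in uninfected cells, 6139 and 6132 CPM with WT, and 4164 and 4192 CPM without a transgene, and the sum of the 15 mitochondrial members tested was 638 and 619 CPM, 659.7 and 672 CPM, and 706.5 and 708 CPM. In both fractions neither sum overlapped between these genotypes, with WT between the other pair, and the mitochondrial sums were in the opposite order to the cytosolic ones, with WT and no transgene close to touching in the cytoplasmic-labelled libraries. The differences between the sums were not tested. The mitochondrial sums did not stand for every member. Nuclear-labelled IARS2 was at 147 and 140 CPM in uninfected cells and 187.5 and 179.8 CPM without a transgene, and LARS2 and AARS2 were also higher. WARS2 went the other way, at 25.5 and 26.6 CPM and 14.8 and 15.5 CPM, as did SARS2 and TARS2.

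WARS1, the tryptophan enzyme (chromosome 14, GRCh38 positions 100333788 to 100376805, minus strand), had the largest change of the 35 without a transgene against uninfected cells, in each fraction. In the cytoplasmic-labelled libraries it was at 364 and 369 CPM in uninfected cells, 249 and 255 CPM with WT, and 71.3 and 52.3 CPM without a transgene. Its nuclear-labelled values were 690.3 and 676 CPM, 383 and 359 CPM, and 139 and 149 CPM in the same order. No library of these genotypes overlapped another genotype in either fraction. Without a transgene WARS1 fell against uninfected cells by 2.57 ± 0.14 (adjusted p = 1.2e-15) and, in the nuclear-labelled libraries, by 2.25 ± 0.06 (adjusted p = 5.61e-46).
GARS1 (chromosome 7, positions 30594681 to 30634033, plus strand) was at 545 and 532.3 CPM in uninfected cells, 464 and 461 CPM with WT, and 175 and 169.5 CPM without a transgene in the cytoplasmic-labelled libraries. The nuclear-labelled values were 665 and 682 CPM, 527 and 509.7 CPM, and 219 and 209.8 CPM. The genotypes again kept apart in both fractions, and GARS1 fell by 1.64 ± 0.09 (adjusted p = 1.58e-15) and 1.65 ± 0.05 (adjusted p = 5.88e-40).
CARS1, the cysteine enzyme (chromosome 11, positions 3000922 to 3057613, minus strand), was at 158 and 160.1 CPM in uninfected cells, 173 and 190.1 CPM with WT, and 63.3 and 56.2 CPM without a transgene in the cytoplasmic-labelled libraries. There the WT libraries were above the uninfected ones, whereas in the nuclear-labelled libraries WT, at 95.8 and 93.7 CPM, lay between uninfected cells at 124 and 135 CPM and cells without a transgene at 39.6 and 42.0 CPM.
KARS1 overlapped between genotypes, from 63.4 to 91.4 CPM over the 17 cytoplasmic-labelled libraries and from 245 to 277 CPM over the nuclear-labelled ones.

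**Figure D1:**
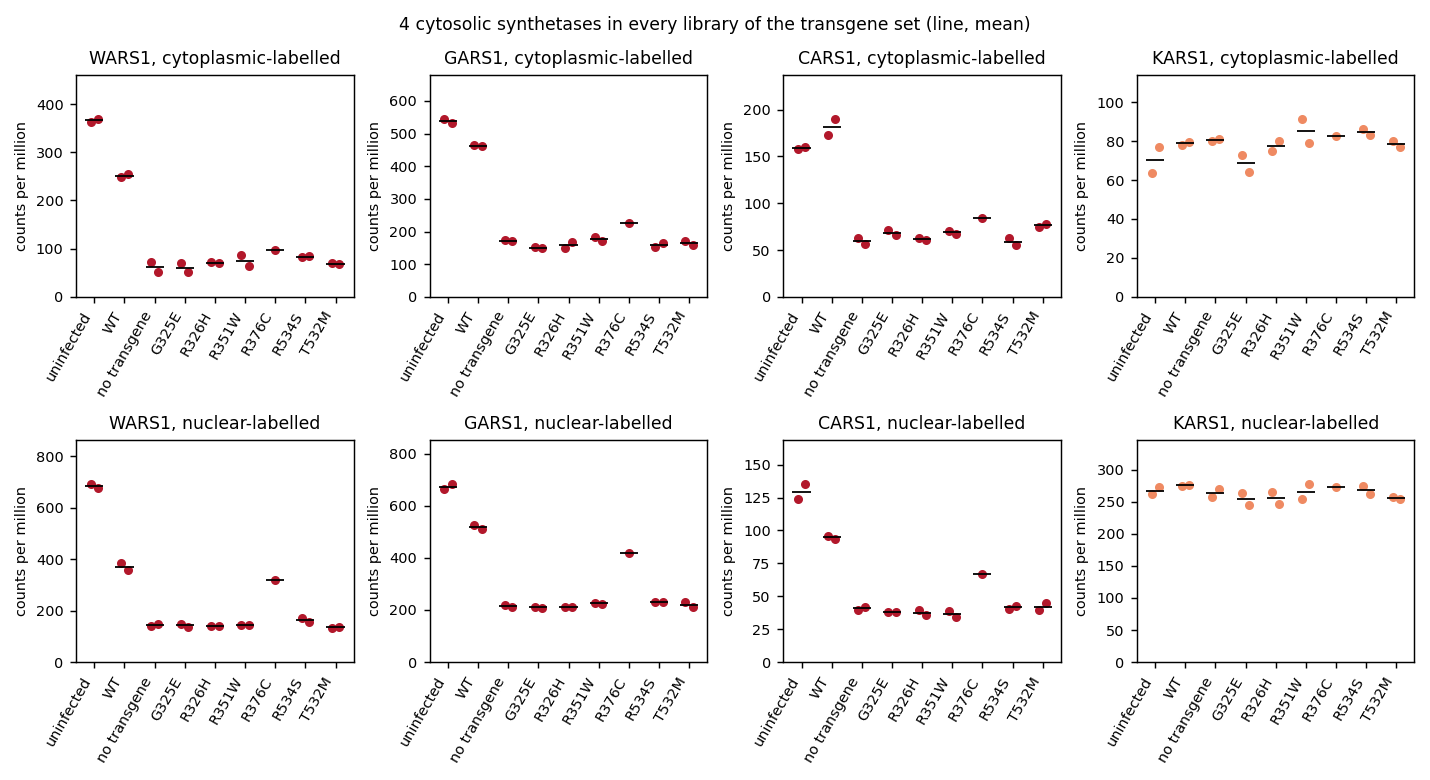
CPM (linear axes from 0) of WARS1, GARS1, CARS1 and KARS1 in every library of the transgene set, by genotype and labelled fraction, with points for libraries and lines for means. WARS1 without a transgene was at 71.3 and 52.3 CPM against 364 and 369 CPM in uninfected cells, and KARS1 spread over 63.4 to 91.4 CPM in the cytoplasmic-labelled libraries with the genotypes mixed.

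Against uninfected cells, 12 of 19 cytosolic synthetases fell and 3 rose without a transgene in the cytoplasmic-labelled libraries, with a median of -0.77, while 11.8% of all genes fell and 14% rose. Beside WARS1, GARS1 and CARS1 (-1.41 ± 0.11), the largest falls were those of MARS1 (-1.18 ± 0.09), EPRS1 (-1.08 ± 0.11) and IARS1 (-1.02 ± 0.08). The members that rose were FARSA, a subunit of the phenylalanine enzyme (0.49 ± 0.13), the valine enzyme VARS1 (0.45 ± 0.10) and the glutamine enzyme QARS1 (0.40 ± 0.10). Of 16 mitochondrial synthetases, only IARS2 (-0.43 ± 0.14) fell and AARS2 (0.32 ± 0.11) rose, and their median was 0.18. The replicates without a transgene were apart in this fraction, at 87.8 and 129 CPM for FARSA and 301 and 386 CPM for VARS1. The calls of FARSA, IARS2 and AARS2 were lost in some fits that left out a library.
Among the nuclear-labelled libraries, 14 of 19 cytosolic synthetases fell and 1 rose, VARS1 at 0.18 ± 0.06, with a median of -0.60, against 19.3% of all genes lower and 19.7% higher. The largest falls after WARS1 were those of CARS1 (-1.67 ± 0.09), GARS1, MARS1 (-1.49 ± 0.06), SARS1 (-1.31 ± 0.06) and the tyrosine enzyme YARS1 (-1.16 ± 0.05). QARS1 fell there by 0.25 ± 0.06, opposite in sign to its change in the other fraction. The 15 mitochondrial members tested split, with 5 lower and 6 higher and a median of 0.09, or 2 lower and 6 higher by DESeq2. WARS2 (-0.78 ± 0.15) and SARS2 (-0.73 ± 0.29) fell, and AARS2 (0.72 ± 0.11) and LARS2 (0.52 ± 0.09) rose. VARS2 was too low to be tested in the nuclear-labelled libraries.
HARS1 and HARS2, the histidine enzymes of the cytosol and of mitochondria, lie head to head on chromosome 5 with overlapping ends and were counted by strand. HARS2 rose in the nuclear-labelled libraries by 0.40 ± 0.13 (adjusted p = 0.00765), and HARS1 did not pass the test in either fraction. Of the nuclear-labelled calls against uninfected cells, several were lost in some fits that left out a library. They were those of FARSB, VARS1, CARS2, FARS2, HARS2, PARS2, SARS2 and TARS2.

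The 13 cytosolic enzymes of the mouse ATF4 response and the 6 others were compared. In both fractions 12 of the 13 fell without a transgene against uninfected cells, and the member that rose was VARS1 in each. Their cytoplasmic-labelled sum was 5767 and 5837 CPM in uninfected cells, 4943 and 4975 CPM with WT, and 2999 CPM in both libraries without a transgene. The 6 others, FARSA, FARSB, HARS1, KARS1, QARS1 and RARS1, summed to 628 to 796 CPM over all 17 libraries of that fraction and 889 to 1044 CPM over the nuclear-labelled ones. By edgeR and by DESeq2, 0 of the 6 fell in the cytoplasmic-labelled libraries, where 3 had an unadjusted p under 0.05 and FARSA and QARS1 rose, and 2 fell in the nuclear-labelled ones, QARS1 and FARSB (-0.21 ± 0.07). Of the 7 synthetases of the multisynthetase complex, 4 fell and 1 rose in the cytoplasmic-labelled libraries and 5 fell in the nuclear-labelled ones.
ATF4 RNA itself stood at 867 and 877 CPM in nuclear-labelled uninfected libraries, 640.3 and 621 CPM with WT, and 286 and 310 CPM without a transgene. Its cytoplasmic-labelled values were 217.9 and 224 CPM, 213 and 205.5 CPM, and 175 and 217 CPM in the same order, with the cells without a transgene overlapping WT. ATF4 fell without a transgene against uninfected cells by 1.55 in the nuclear-labelled libraries and stood at -0.17 (adjusted p = 0.235) in the cytoplasmic-labelled ones. Of ATF4 and 11 other genes of its response, 10 fell in the cytoplasmic-labelled libraries (median -2.17) and 12 in the nuclear-labelled ones (median -2.28). Their part in the change of the synthetases was not tested. Among the 3 scaffold proteins of the complex, EEF1E1 (-1.11) and AIMP1 (-0.84) fell in the cytoplasmic-labelled libraries. Of the 4 partners that finish mitochondrial tRNA charging, 0 passed in that fraction by edgeR and by DESeq2, with 1 at an unadjusted p under 0.05. SEPSECS, which makes selenocysteine on its tRNA, fell in both (-0.88 and -0.68).

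Comparisons with WT share its libraries with each other and with the comparison of WT and uninfected cells. Without a transgene, 10 of 19 cytosolic synthetases fell and 3 rose against WT in the cytoplasmic-labelled libraries, where 4.19% of all genes fell and 4.2% rose. The 3 that rose were FARSA, QARS1 and VARS1, and their calls were lost in some fits that left out a library. Of the 16 mitochondrial ones 0 passed by edgeR and by DESeq2, with 2 at an unadjusted p under 0.05. WARS1 (-2.03 ± 0.14), CARS1 (-1.61 ± 0.11), GARS1 (-1.42 ± 0.09) and MARS1 (-1.13 ± 0.09) fell most. The nuclear-labelled comparison had 13 that fell and 0 that rose, against 8.73% and 9.23% of all genes, with WARS1 at -1.36 ± 0.06 and GARS1 at -1.27 ± 0.05, and of 15 mitochondrial ones 1 fell (WARS2, -0.42 ± 0.15) and 3 rose. The nuclear-labelled calls of QARS1, WARS2, AARS2, IARS2 and MARS2 were lost in some fits that left out a library.
WT was itself below uninfected cells in part of the cytosolic synthetases. Cytoplasmic-labelled, 5 cytosolic synthetases fell, namely EPRS1 (-0.60 ± 0.10), FARSB (-0.55 ± 0.12), WARS1 (-0.54 ± 0.12), LARS1 (-0.45 ± 0.08) and IARS1 (-0.27 ± 0.08), against 3.73% of all genes lower and 4.54% higher. Leaving out either replicate 1 of WT or replicate 1 of the uninfected cells left 2 calls, and leaving out either replicate 2 left 3. Nuclear-labelled, 9 cytosolic synthetases fell and 0 rose, with WARS1 at -0.88 ± 0.06 (adjusted p = 3.67e-22), MARS1 at -0.56 ± 0.05 and SARS1 at -0.56 ± 0.06, against 10.3% and 10.9% of all genes. Of the mitochondrial members there, AARS2, HARS2 and LARS2 passed as higher with WT and FARS2 as lower. These mitochondrial calls and those of EPRS1 and LARS1 were lost in some fits that left out a library. Without WT replicate 2, 7 calls over both classes were made there in place of 13.

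All 6 mutants were set against WT. In the cytoplasmic-labelled libraries the cytosolic synthetases that fell were 11 of 19 with G325E (3.94% of all genes fell), 10 with R326H (3.32%), 10 with R351W (3.46%), 8 with R376C (0.73%), 10 with R534S (4.27%) and 11 with T532M (7.88%). At most 1 cytosolic member rose in any of them. The shares of all genes that rose were 2.21% with G325E, 1.91% with R326H, 2.2% with R351W, 0.097% with R376C, 3.11% with R534S and 6.83% with T532M. Among the 16 mitochondrial synthetases, IARS2 with T532M (-0.61) passed the test, and with the other 5 mutants 0 did by edgeR and by DESeq2, with 2 to 4 at an unadjusted p under 0.05. Nuclear-labelled RNA gave 13 cytosolic members that fell with G325E (8.65% of all genes), 14 with R326H (8.65%), 13 with R351W (7.52%), 7 with R376C (1.63%), 14 with R534S (10.2%) and 16 with T532M (17.7%). The shares of all genes that rose there were 8.62%, 9.03%, 7.51%, 1.12%, 10.2% and 17.5% in the same order. Among the mitochondrial members there, MARS2 rose with G325E, R326H, R351W and R534S. It was at 29.8 to 37.6 CPM in the 5 mutants other than R376C, against 20.7 and 24.9 CPM with WT. WARS2 with G325E (lower), CARS2 with R326H, R351W and R534S (higher) and IARS2 with R351W (higher) also passed. These further calls were lost in some fits that left out a library. The 7 calls with R376C were all cytosolic.
The summed cytosolic level set R376C apart from the others. The nuclear-labelled R376C library was at 5318 CPM, below WT at 6139 and 6132 CPM, and the 10 libraries of the other mutants were at 3731 to 4377 CPM. The cytoplasmic-labelled R376C library was at 3938 CPM, close above the 3432 to 3716 CPM of the others.
The same split was seen in WARS1. The nuclear-labelled R376C library had 319 CPM of WARS1, the other mutants 134 to 173 CPM with a median of 142, and WT 383 and 359 CPM. The cytoplasmic-labelled R376C library had 96.3 CPM, the other mutants 50.6 to 86.3 CPM with a median of 70.3, and WT 249 and 255 CPM. In both fractions R376C lay between WT and the other mutants, near WT in the nuclear-labelled fraction and near the mutants in the cytoplasmic-labelled one. Against WT, WARS1 fell with R376C by 1.39 ± 0.17 (adjusted p = 2.97e-06) in the cytoplasmic-labelled libraries and stood at -0.22 ± 0.07 (adjusted p = 0.0838) in the nuclear-labelled ones. The difference between these changes was 1.10 (adjusted p = 0.000141), in a test that called 0.0791% of all genes higher and 0.1% lower.
For GARS1, the nuclear-labelled R376C library was at 419.5 CPM, between 208 to 230.2 CPM in the other mutants and 527 and 509.7 CPM with WT, and the cytoplasmic-labelled one at 226 CPM against 148.5 to 183 CPM and 464 and 461 CPM. Its changes with R376C were -1.04 ± 0.12 and -0.30 ± 0.07, and they differed by 0.65 (adjusted p = 0.00591). These values rest on 1 R376C library in each fraction, whose spread is assumed to be that of the other genotypes.

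An F test over WT and the 6 mutants called 11 cytosolic and 1 mitochondrial member in the cytoplasmic-labelled libraries, where 11.5% of all genes passed, and 16 and 8 in the nuclear-labelled ones, where 38.6% did. Differences among the 6 mutants alone were tested with an F test chosen after the data had been seen. In the cytoplasmic-labelled fraction GARS1 alone of the 35 passed it (adjusted p = 0.00967), where 4.85% of all genes did. In the nuclear-labelled ones 14 cytosolic and 1 mitochondrial member passed, where 26.5% of all genes did, led by WARS1 (adjusted p = 7.84e-25) and GARS1 (adjusted p = 4.72e-22). Without R376C, the other 5 mutants differed in 0 of the 35 in the cytoplasmic-labelled libraries by edgeR and by DESeq2, with 4 at an unadjusted p under 0.05, where 4.72% of all genes passed. In the nuclear-labelled ones 11 cytosolic and 1 mitochondrial member still passed, where 23.1% of all genes did, with the arginine enzyme RARS1 first (adjusted p = 2.94e-06). RARS1 was at 77.5 and 65.3 CPM in the nuclear-labelled T532M libraries, both below the 8 libraries of the other 4 mutants, and fell against WT by 0.46 ± 0.08 (adjusted p = 7.14e-06). Of the 6 mutants, T532M had the most mitochondrial members called lower than WT in the nuclear-labelled libraries, 7 of 15 against 1 higher, and was also the mutant with the largest share of all genes lower there, 17.7% against 1.63% to 10.2% with the others. Among the 7 were SARS2 (-1.57 ± 0.36), WARS2 (-0.70 ± 0.17) and NARS2 (-0.64 ± 0.13). The calls of WARS2, FARS2, TARS2 and YARS2 were lost in some fits that left out a library. So was that of MARS2, the member that was higher. The T532M replicates were apart in this fraction, as for WARS2 at 14.99 and 9.266 CPM.

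**Figure D2:**
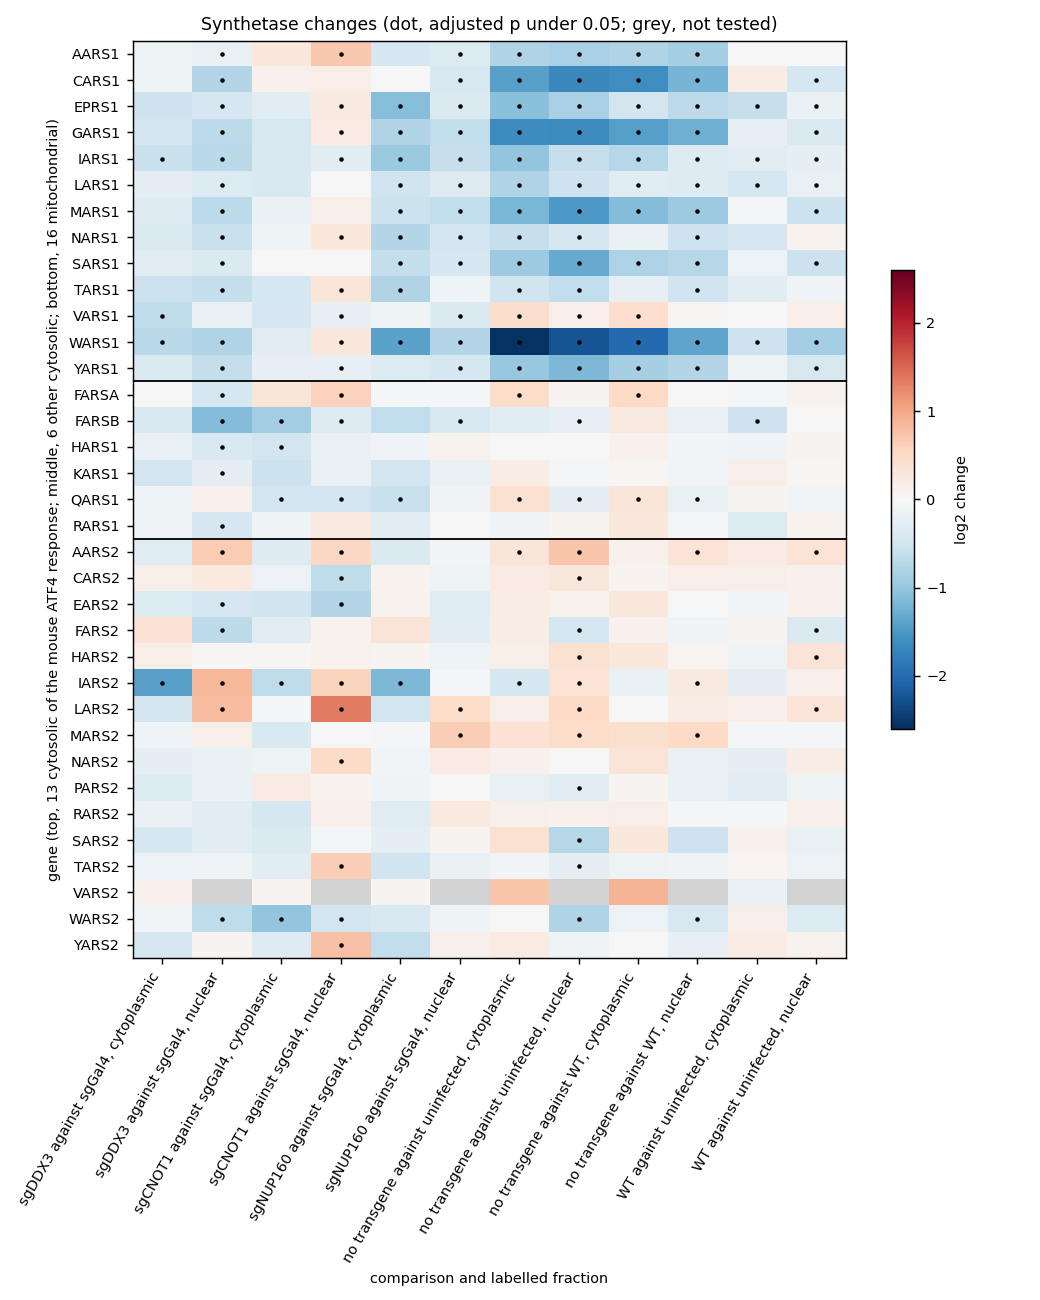
Log2 change of each of the 35 synthetases in 6 comparisons and both labelled fractions, from lower (blue) to higher (red), with dots where the adjusted p was under 0.05 and grey where a gene was not tested; the 13 cytosolic enzymes of the mouse ATF4 response are at the top, the 6 others in the middle and the 16 mitochondrial ones at the bottom. The darkest cell is WARS1 without a transgene against uninfected cells, at -2.57, and of the mitochondrial genes only IARS2 and AARS2 carry a dot in that cytoplasmic-labelled comparison.

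The guide set asks how knockdown of DDX3, CNOT1 or NUP160 alters the same genes, and its comparisons share the sgGal4 libraries. The cytosolic sum in the cytoplasmic-labelled libraries was 7076 and 6790 CPM with sgGal4, 5265 and 5302 CPM with sgDDX3, 6350 and 5375 CPM with sgCNOT1, and 4520 and 4377 CPM with sgNUP160. The nuclear-labelled sums were 7791 and 7836 CPM, 5512 and 5555 CPM, 8419 and 8350 CPM, and 5766 and 5829 CPM in that order. The sgDDX3 and sgNUP160 sums were below sgGal4 in both fractions, and the sgCNOT1 sums were below it in one and above it in the other. The mitochondrial sum was 1163 and 1230 CPM with sgGal4 and 860 to 985 CPM with the other guides in the cytoplasmic-labelled libraries, without overlap. Its nuclear-labelled values were 533.7 and 519 CPM with sgGal4, 605 and 603 CPM with sgDDX3, 642 and 658 CPM with sgCNOT1, and 535 and 519.9 CPM with sgNUP160, so that sgDDX3 and sgCNOT1 lay above sgGal4 there and sgNUP160 overlapped it. Of the cytoplasmic-labelled mitochondrial sum, IARS2 alone made up 274 and 272 CPM with sgGal4 and 95.0 to 216 CPM with the other guides.

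With sgDDX3, 17 of 19 cytosolic synthetases fell and 0 rose in the nuclear-labelled libraries and their median change was -0.46, while 14.9% of all genes fell and 16.4% rose. WARS1, at 404 and 416 CPM against 703 and 710.0 CPM with sgGal4, fell by 0.78 ± 0.06 (adjusted p = 1.79e-10). FARSB, a subunit of the phenylalanine enzyme, was at 48.4 and 44.7 CPM against 99.1 and 106 CPM and fell by 1.13 ± 0.12 (adjusted p = 1.73e-08), and its partner subunit FARSA fell by 0.46 ± 0.10. In neither gene did the groups overlap. CARS1 (-0.77 ± 0.10), IARS1 (-0.70 ± 0.07), GARS1 (-0.67 ± 0.06) and MARS1 (-0.67 ± 0.07) followed.
Of the 13 enzymes of the mouse ATF4 response 12 fell, and of the 6 others 5 did, KARS1 (-0.26 ± 0.08) and HARS1 (-0.39 ± 0.11) among them. Of the 7 complex members 6 fell, and 2 of 3 scaffold proteins (EEF1E1 -1.04 and AIMP2 -0.70) and 9 of 12 ATF4 response genes did so as well. Of the 15 mitochondrial synthetases 3 fell and 3 rose, namely FARS2 (-0.68 ± 0.15), WARS2 (-0.66 ± 0.17) and EARS2 (-0.43 ± 0.12) on one side and IARS2 (0.86 ± 0.10), LARS2 (0.81 ± 0.12) and AARS2 (0.66 ± 0.14) on the other. The nuclear-labelled calls of AARS1, HARS1, KARS1, RARS1, EARS2 and WARS2 were lost in some fits that left out a library.
Cytoplasmic-labelled, 3 cytosolic members fell with sgDDX3, WARS1 (-0.69 ± 0.17), VARS1 (-0.67 ± 0.16) and IARS1 (-0.58 ± 0.15), where 1.68% of all genes fell and 1.08% rose, and their median over 19 was -0.37. Of the mitochondrial ones IARS2 fell by 1.41 ± 0.22 (adjusted p = 0.00436). These 4 calls dropped to 0 without either sgDDX3 library and to 1 without either sgGal4 library.

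IARS2, the mitochondrial isoleucine enzyme (chromosome 1, positions 220094102 to 220148041, plus strand), fell with sgDDX3 and sgCNOT1 in the cytoplasmic-labelled libraries and rose with both in the nuclear-labelled ones. Its cytoplasmic-labelled level was 274 and 272 CPM with sgGal4, 111 and 95.0 CPM with sgDDX3, 216 and 125 CPM with sgCNOT1, and 139 and 103 CPM with sgNUP160. Its nuclear-labelled level was 94.2 and 85.7 CPM with sgGal4, 166 and 163 CPM with sgDDX3, 125 and 146 CPM with sgCNOT1, and 88.8 and 89.1 CPM with sgNUP160. The sgGal4 libraries were the highest in the cytoplasmic-labelled fraction, above the 137 and 151 CPM of the uninfected cells, and they overlapped sgNUP160 in the nuclear-labelled one.
LARS2, the mitochondrial leucine enzyme (chromosome 3, positions 45388506 to 45549421, plus strand), was at 32.4 and 34.1 CPM with sgGal4, 58.4 and 57.1 CPM with sgDDX3, 86.3 and 82.4 CPM with sgCNOT1, and 48.0 and 44.0 CPM with sgNUP160 in the nuclear-labelled libraries. No guide overlapped another there, and sgGal4 was the lowest.

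**Figure D3:**
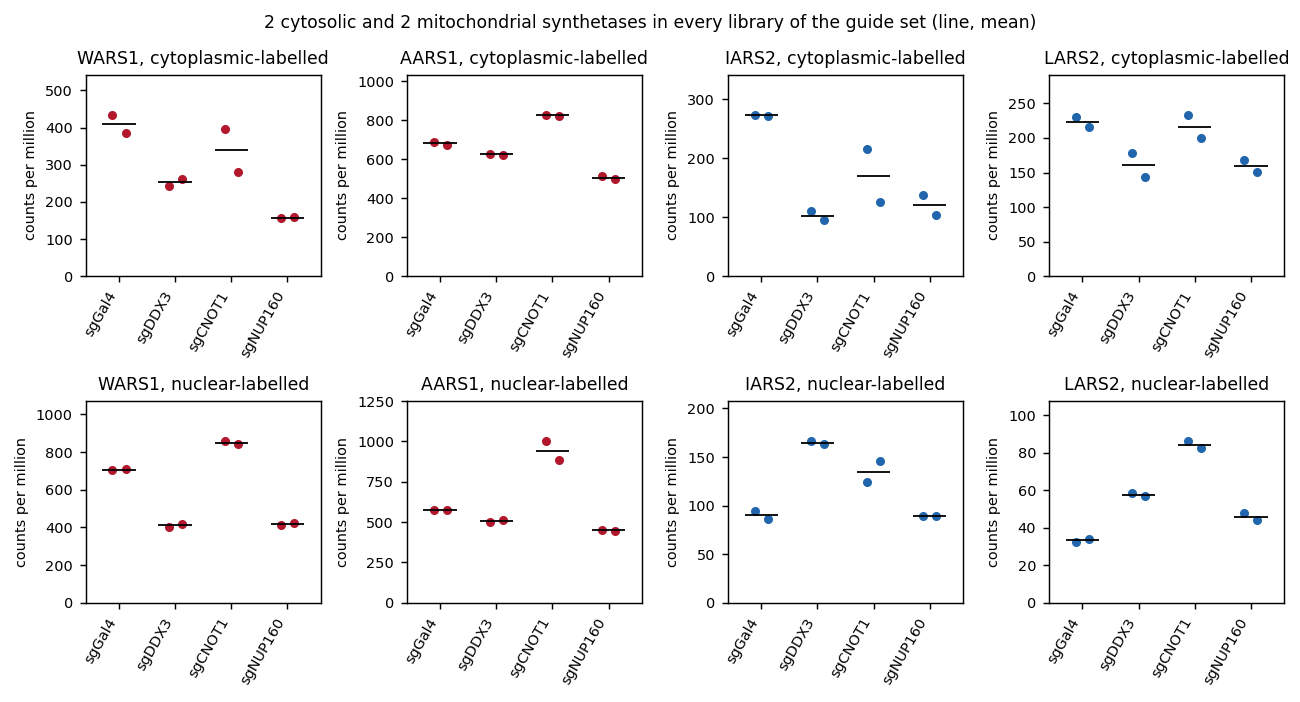
CPM (linear axes from 0) of WARS1, AARS1, IARS2 and LARS2 in every library of the guide set, with points for libraries and lines for means of 2. IARS2 with sgDDX3 was at 111 and 95.0 CPM against 274 and 272 CPM with sgGal4 in the cytoplasmic-labelled fraction, and at 166 and 163 CPM against 94.2 and 85.7 CPM in the nuclear-labelled one.

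With sgNUP160, 10 of 19 cytosolic synthetases fell and 0 rose in the cytoplasmic-labelled libraries, with a median of -0.57, where 8.13% of all genes fell and 7.05% rose. WARS1, at 156 and 159 CPM against 434 and 385 CPM, fell by 1.38 ± 0.18 (adjusted p = 0.000353), and EPRS1 (-1.11 ± 0.22) and IARS1 (-0.97 ± 0.15) followed. IARS2 (-1.17 ± 0.22) was the 1 mitochondrial member that fell. In place of 11 calls, 3 were made without sgGal4 replicate 1, 3 without sgNUP160 replicate 1 and 2 without sgNUP160 replicate 2, and IARS1 and WARS1 passed whichever library was left out.
The nuclear-labelled libraries had 13 cytosolic members that fell and 0 that rose, with a median of -0.38, where 8.54% of all genes fell and 7.36% rose. WARS1 (-0.76 ± 0.06), MARS1 (-0.65 ± 0.07), GARS1 (-0.64 ± 0.06) and IARS1 (-0.60 ± 0.07) led, and 12 of the 13 belonged to the mouse ATF4 response, with FARSB (-0.42 ± 0.12) the other. Of 12 ATF4 response genes, 10 fell in each fraction. Among the 15 mitochondrial members MARS2 (0.65 ± 0.17) and LARS2 (0.49 ± 0.12) rose and 0 fell by edgeR and by DESeq2, with 4 at an unadjusted p under 0.05. The nuclear-labelled calls of MARS2, LARS2, FARSB, CARS1, LARS1 and VARS1 were lost in some fits that left out a library. Set directly against sgDDX3, sgNUP160 was lower for WARS1 in the cytoplasmic-labelled libraries (-0.69, adjusted p = 0.0381), where 2.29% of all genes were lower, and 2.73% higher, but this call was lost whichever of the 4 libraries was left out. In the nuclear-labelled libraries 7 cytosolic synthetases were higher and 1 lower with sgNUP160 than with sgDDX3, and 5 mitochondrial ones were higher and 4 lower, against 15.7% of all genes higher and 18.6% lower. With 1 library left out, 7 calls were made without sgDDX3 replicate 1, 10 without sgDDX3 replicate 2, 9 without sgNUP160 replicate 1 and 8 without sgNUP160 replicate 2, in place of 17.

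With sgCNOT1, the nuclear-labelled changes went both ways, as they did over all genes tested. Of 19 cytosolic synthetases 7 rose and 5 fell, with a median of 0.15, where 26.5% of all genes rose and 23.1% fell, and of 15 mitochondrial ones 6 rose and 3 fell. AARS1, at 1001 and 885 CPM against 576 and 577 CPM with sgGal4, rose by 0.71 ± 0.07 (adjusted p = 6.19e-10), without overlap. FARSA (0.59 ± 0.10), TARS1 (0.31 ± 0.07) and WARS1 (0.27 ± 0.06) rose, whereas QARS1 (-0.51 ± 0.07) and FARSB (-0.33 ± 0.11) fell, so the subunits of the phenylalanine enzyme went in opposite directions. FARSB was at 71.7 and 91.25 CPM against 99.1 and 106 CPM with sgGal4, and its call was lost in some fits that left out a library. The nuclear-labelled calls of EPRS1, GARS1, IARS1, NARS1, VARS1, YARS1, NARS2 and WARS2 were also lost in some of these fits. LARS2 rose by 1.35 ± 0.12 (adjusted p = 1.53e-10) and YARS2 by 0.76 ± 0.14, while EARS2 (-0.77 ± 0.12) and CARS2 (-0.66 ± 0.12) fell. Of the 13 enzymes of the mouse ATF4 response 6 rose and 3 fell, and of 12 ATF4 response genes 3 rose and 4 fell.
In the cytoplasmic-labelled libraries FARSB (-0.91 ± 0.23), QARS1 (-0.49 ± 0.15), HARS1 (-0.47 ± 0.16), WARS2 (-1.02 ± 0.31) and IARS2 (-0.67 ± 0.22) fell, where 9.01% of all genes fell and 13% rose. The sgCNOT1 replicates were far apart there, as for WARS1 at 396 and 282 CPM. The 5 calls became 17 without sgCNOT1 replicate 1, 11 without its replicate 2, 0 when the sgGal4 control lost its replicate 1 and 1 when it lost its replicate 2, and 12 with a replicate block.

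**Figure D4:**
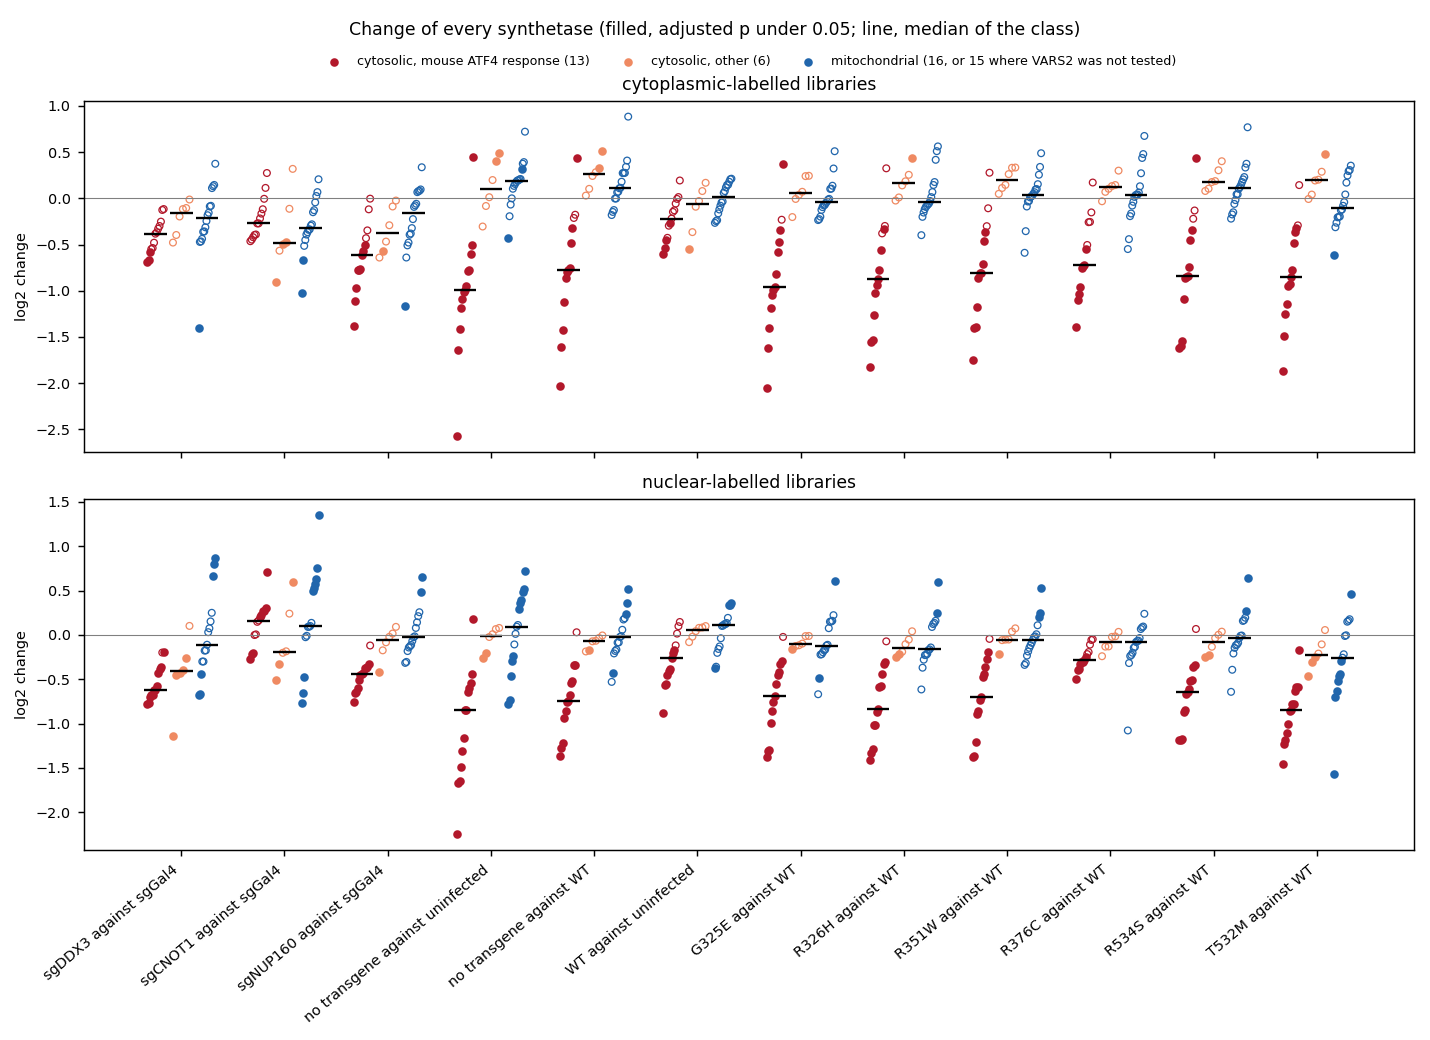
Log2 change of every synthetase tested in 12 comparisons, by labelled fraction, for the 13 cytosolic enzymes of the mouse ATF4 response (red), the 6 others (orange) and the mitochondrial ones (blue), with filled points at an adjusted p under 0.05 and a line at the median of each class. Without a transgene, cytoplasmic-labelled, the medians against uninfected cells were -0.99, 0.11 and 0.18.

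The cells with sgDDX3 in both sets allow DDX3 knockdown to be compared with different controls, since sgDDX3 against sgGal4 and no transgene against uninfected cells have no library in common. In the nuclear-labelled libraries 14 of 19 cytosolic synthetases had a lower value in both comparisons and 13 fell in both. Of the 13788 genes tested in both, 31.4% had a lower value in both and 7.09% fell in both. The changes correlated across the 19 genes with r = 0.416 and rho = 0.47. Across the 15 mitochondrial ones r was 0.778. Cytoplasmic-labelled, 14 of 19 cytosolic members were lower in both, 2 fell in both, and r was 0.369, where 27.7% of 15654 genes were lower in both and 0.735% fell in both. Of the 16 mitochondrial members there, 3 were lower in both, with r = 0.561 and rho = 0.159. These correlations are descriptions across genes, which are not independent replicates. WARS1 fell by 2.25 in one and by 0.78 in the other in the nuclear-labelled fraction, and the difference between them was not tested.

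The change of the ratio between the labelled fractions was tested for each knockdown as an interaction. With sgDDX3 it differed from sgGal4 for IARS2, LARS2, AARS2 and FARS2, all 4 mitochondrial, where 2.28% of all genes had a higher ratio of nuclear-labelled to cytoplasmic-labelled level and 0.0952% a lower one. IARS2 had a log2 ratio higher by 2.32 and LARS2 by 1.31, and both passed whichever library was left out. With sgCNOT1 the ratio was higher for IARS2 (1.23), LARS2 (1.38), YARS2 (1.08), TARS2 (0.90), AARS2 (0.86) and the cytosolic TARS1 (0.76), where 2.59% of all genes were higher and 3.24% lower. With sgNUP160 it was higher for IARS2 (1.23), LARS2 (1.04) and WARS1 (0.71), where 3.25% of all genes were higher and 0.409% lower. These comparisons share the sgGal4 libraries, which had the highest IARS2 level in the cytoplasmic-labelled fraction. Without sgCNOT1 cytoplasmic-labelled replicate 1 there were 15 calls with that guide, and without sgGal4 nuclear-labelled replicate 2 there were 2 with sgDDX3, 2 with sgCNOT1 and 1 with sgNUP160. With sgDDX3 there were also 2 without its own nuclear-labelled replicate 1. With sgNUP160 there were 5 without sgGal4 cytoplasmic-labelled replicate 2, 1 without its own cytoplasmic-labelled replicate 2 and 0 without its own nuclear-labelled replicate 1.
Without a transgene the ratio differed from uninfected cells for IARS2 (0.83), IARS1 (0.47) and LARS2 (0.39) upward and for QARS1 (-0.61) and SARS2 (-1.08) downward, where 5.32% of all genes were higher and 5.22% lower. IARS1, QARS1 and IARS2 passed whichever library was left out. In place of 5 calls, 3 were made without either uninfected cytoplasmic-labelled library or either nuclear-labelled library without a transgene. Without replicate 1 of the cytoplasmic-labelled libraries without a transgene there were 13, 6 higher and 7 lower. Against WT it was higher for WARS1 (0.63) and IARS1 (0.38) and lower for FARSA (-0.56), QARS1 (-0.54) and VARS1 (-0.44), where 0.438% of all genes were higher and 2.21% lower, and 0 of the 5 passed in every fit that left out 1 library. There were 3 calls without either cytoplasmic-labelled WT library, 1 without nuclear-labelled WT replicate 2, and 2 and 1 without replicates 1 and 2 of the nuclear-labelled libraries without a transgene.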

How the data were processed

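RNA from labelled cytoplasmic and nuclear fractions of K562 cells was rRNA-depleted and sequenced with a directional kit, per the labels' protocols. The submitters' processing notes name STAR 2.7.5a and GRCh38; for the annotation, a version was not given in the sources used here. Each deposited file gives raw read counts per gene in STAR's layout, and the authors applied no scaling to them, as the whole-number values show. Only the strand that the kit yields was used, beside which 5.30% to 11.6% of stranded counts lay on the other. Rows that name no gene were left out of library sizes: reads outside genes were 50.4% to 69.2% of reads in or outside genes in the cytoplasmic-labelled and 5.14% to 10.5% in the nuclear-labelled libraries. Of 51 libraries 50 were analysed, and 0 columns of other samples were present. Reads without molecular identifiers are not independent molecules, so precision was taken from replicates.

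Groups follow the labels. In R 4.3.3, edgeR 4.0.16 (with limma 3.58.1) fitted each set and fraction separately, with a coefficient per genotype, TMM normalization, edgeR's default filter on low counts and robust quasi-likelihood dispersions. Each fit tested 14324 to 17530 genes, and 17858 and 18969 genes in the fits of both fractions with an interaction for the ratio. CPM use TMM-normalized library sizes, and CPM per kb divide by the union of the exons in GENCODE release 29. Adjusted p is Benjamini-Hochberg over all genes tested. The test was checked on simulated data. Replicate pairs differed by more than sampling noise (lowest chi-square over its degrees of freedom, 2.04). Alternatives were RLE normalization, no filter (a total count of at least 1), DESeq2 1.42.0, a block for the replicate number, each replicate left out in turn (78 fits) and, for the nuclear-labelled transgene libraries and the ratios of that set, R376C replicate 2 kept. The F tests among the mutants and the R376C ratio were added after seeing the data.

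In each comparison the text names up to 6 cytosolic and 4 mitochondrial members of largest change among those that passed, any member whose ratio passed, and GARS1, KARS1, EPRS1, FARSA, FARSB, HARS1 and HARS2. Other members in small counts or by roles, among them RARS1, VARS1, QARS1 and the transgene comparisons' IARS1 and LARS1, were named after their values were seen. The members and lists were chosen with earlier results of these data known. Promoter windows were read with Python 3.11.15 from RefSeq sequences of GRCh38.p14.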

Additional observations from a re-analysis of the deposited data

Results flagged for a closer look

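For 25 pairs of a synthetase and a comparison, the log2 change in the nuclear-labelled libraries differed from that in the cytoplasmic-labelled ones, by an interaction test in edgeR adjusted over all genes tested. Each value below is the nuclear-labelled change minus the cytoplasmic-labelled one, with its standard error. With sgDDX3 against sgGal4 it was 2.32 ± 0.26 for IARS2 (adjusted p = 6.32e-07), 1.31 ± 0.22 for LARS2, 1.01 ± 0.24 for AARS2 and -1.02 ± 0.28 for FARS2. With sgCNOT1 it was 1.38 ± 0.22 for LARS2, 1.23 ± 0.25 for IARS2, 1.08 ± 0.27 for YARS2, 0.90 ± 0.22 for TARS2, 0.86 ± 0.23 for AARS2 and 0.76 ± 0.22 for TARS1. With sgNUP160 it was 1.23 ± 0.26 for IARS2, 1.04 ± 0.22 for LARS2 and 0.71 ± 0.21 for WARS1.

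Without a transgene, set against uninfected cells, the difference was 0.83 ± 0.16 for IARS2, 0.47 ± 0.10 for IARS1, 0.39 ± 0.13 for LARS2, -0.61 ± 0.11 for QARS1 and -1.08 ± 0.35 for SARS2. Set against WT it was 0.63 ± 0.14 for WARS1, 0.38 ± 0.10 for IARS1, -0.44 ± 0.12 for VARS1, -0.54 ± 0.11 for QARS1 and -0.56 ± 0.14 for FARSA. With R376C against WT it was 1.10 ± 0.17 for WARS1 and 0.65 ± 0.13 for GARS1, both with 1 R376C library in each fraction. Groups of 2 are too small for the search for single outlying samples.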

How the results depend on the processing

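Of 225 changes of single genes tried under alternatives, 0 reversed, and 1690 of their repeats stayed on the same side of the threshold while 269 lost the call. All 225 had been chosen because they passed in the main fits and, outside the ratios, were among the largest. Repeats could therefore lose a call but not gain any, and a reversal was unlikely from the start. Of the repeats of 66 class medians, 495 stayed within the spread between replicates and 89 did not. Numbers of synthetases called moved by over 1.5 times in these cases. Keeping R376C nuclear-labelled replicate 2 left, in the nuclear-labelled comparisons, 9 in place of 26 calls without a transgene against uninfected cells, 3 in place of 17 against WT, 0 in place of 13 for WT against uninfected cells, 3 each with G325E, R326H, R351W and R534S, 0 with R376C and 7 with T532M. It left 3 in the F test among WT and 6 mutants, 1 among 6 mutants, 0 among 5 mutants, and 0 in each of the 3 ratio comparisons of the transgene set. With no filter on low counts there were 2 calls for sgNUP160 against sgDDX3 in the cytoplasmic-labelled libraries, 5 for the sgNUP160 ratio, 3 for the ratio without a transgene against uninfected cells, and, in the cytoplasmic-labelled libraries, 3 in the F test among 6 mutants and 1 among 5. DESeq2 made 2 calls for sgNUP160 against sgDDX3 in the cytoplasmic-labelled libraries, 8 for each ratio without a transgene and 5 for the R376C ratio. With a replicate block there were 12 calls for sgCNOT1 and 3 for sgNUP160 against sgDDX3 in the cytoplasmic-labelled libraries, and 5 for the sgNUP160 ratio, and the block moved no other count of calls by over 1.5 times. Replicate numbers share nothing that the labels state: same-numbered libraries correlated in their deviations at -0.0134 to 0.221 in the cytoplasmic-labelled guide set, where 2 of 6 pairs were over 0.1, and at most at 0.0597 elsewhere. With 1 library left out, the lone replicate of an arm is assumed to vary like the other groups. Counts of calls then ran from 0 to 1 (sgDDX3), 0 to 17 (sgCNOT1), 2 to 8 (sgNUP160) and 0 to 0 (sgNUP160 against sgDDX3) in the cytoplasmic-labelled guide set, and from 7 to 10 for sgNUP160 against sgDDX3 in the nuclear-labelled one. They ran from 2 to 3 (sgDDX3), 2 to 15 (sgCNOT1) and 0 to 5 (sgNUP160) for the guide ratios. In the transgene set they ran from 2 to 3 and 7 to 11 for WT against uninfected cells in the cytoplasmic-labelled and nuclear-labelled libraries, from 1 to 2 and 0 to 1 in the cytoplasmic-labelled F tests among 6 and 5 mutants, and from 3 to 13 and 1 to 7 for the ratios without a transgene against uninfected cells and WT. Those 2 ratios also changed the balance of directions: 13 calls, 6 higher and 7 lower, without cytoplasmic-labelled replicate 1 of the cells without a transgene, and 1 call, higher, without nuclear-labelled WT replicate 2. The cause of these changes was not tested. RLE normalization moved no count by over 1.5 times. Depth limits the low mitochondrial genes, and VARS2 was too low in the nuclear-labelled libraries to be tested.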
